A study of Mus musculus with 18 samples.

Results

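Regulatory T cells (Tregs) that had already expressed Foxp3 in the first days of life were compared with the remaining Tregs of spleens from mice given the same tamoxifen. The comparison rests on 6 of the 18 arrays of the series, 3 of tagged and 3 of untagged cells, and covers the 10350 genes with a single symbol that reached a minimum intensity. All mice were NOD lineage reporters that carry Foxp3-eGFP-Cre-ERT2 and Rosa26-YFP, in which Foxp3 drives both GFP and a tamoxifen-dependent Cre, and Cre activity leaves a heritable YFP mark. Tamoxifen was injected 4 times at regular intervals from day 0 to day 10 of age, and the mice, labelled female, were kept until 8 weeks (age label 60 days). Spleen cells were double-sorted on a FACSAria as GFP+YFP+ (tagged, arrays numbered 2, 4 and 5) or GFP+YFP- (untagged, arrays numbered 3, 4 and 5). Values below are log2 intensities in that array order, a difference is tagged minus untagged on the log2 scale, and 1 log2 unit is a doubling.

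Some limits come with the model. Only a cell that expressed Foxp3 while tamoxifen was active can carry YFP, so untagged cells are the bulk of later origin together with any early cell that escaped recombination. Both gates ask for GFP, hence for Foxp3 at the time of sorting, and a cell that lost Foxp3 is in neither. Nothing in the sample labels ties an array to 1 animal or to a pool, so p-values measure the spread between these samples, which may be technical. In bulk RNA, fewer cells with a transcript and less transcript per cell cannot be told apart. As a comparator, the same 2 gates were sorted after tamoxifen from day 35 to day 45 (adult-tagged and adult-untagged, 3 arrays each). Those samples carry the same age label, so age at tagging and time since tagging cannot be told apart. Adult tamoxifen could also tag early-made cells that expressed Foxp3 at that time.

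Tregs restrain other lymphocytes, and Foxp3 is the transcription factor that defines them. Resting Tregs keep lymph node homing receptors and the IL-7 receptor and divide rarely. Effector Tregs carry receptors for inflamed and barrier tissue, granzymes and inhibitory receptors such as Klrg1, and cycle more often. Tregs made around birth are known to persist into adult life and to guard against autoimmunity.

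Foxp3 was measured at 11.98, 11.96 and 11.90 in tagged and at 12.16, 12.18 and 12.23 in untagged cells (difference -0.24, SE 0.12, limma adjusted p = 0.253). Il2ra, the IL-2 receptor alpha chain, read 12.45, 12.23 and 12.17 against 12.43, 12.20 and 12.22. Ikzf2, which encodes Helios, differed by 0.24 (SE 0.15, limma adjusted p = 0.356). Of 25 Treg identity genes tested, 1 rose (Capg, an actin-capping protein, by 0.85; 2 rose without untagged replicate 3) and 0 fell, beside 5.49% of all genes higher and 1.86% lower.

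Both groups contain an array that stands apart. Tagged replicate 2, labelled female, read 8.38 for Xist and 9.79 for Eif2s3y, a Y-linked gene, where the other 11 spleen arrays read 11.86 to 12.41 and 3.95 to 4.90. Untagged replicate 3 correlated with untagged replicates 4 and 5 at r = -0.44 and -0.35 over genes centred on their 12-array mean, while those 2 correlated at 0.69. It correlated with the 3 adult-tagged arrays at 0.52 to 0.64. Tagged replicates 4 and 5 correlated at 0.85, and tagged replicate 2 with them at 0.48 and 0.51. Results are therefore given with all 6 arrays, and the calls of a list also without each of these arrays where their number moved. The correlations are over the same genes and carry no test.

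Tagged cells differed from untagged cells at 760 genes (7.34% of 10350, limma with Benjamini-Hochberg adjustment, threshold 0.05), of which 568 were higher (5.49%) and 192 lower (1.86%). Of the 568 higher genes, 83 reached the minimum intensity (log2 7.05 in a group mean) only in perinate-tagged cells among the 4 groups, and so entered the test through the group where they were high. Those described below are Fgl2, Ccr3, Gpr15, Ltb4r1, Dsg2, Nuf2, Cdc6, Ier3, Igf2bp3, C1qb, Trpm6 and Ly86. The 83 include 4 of 30 raised mitosis genes, 3 of 8 raised homing receptors and integrins and 2 of 8 raised suppressive mediators and checkpoint receptors. They also include 1 of 15 raised membrane, annexin and cytoskeleton genes and 1 of 23 raised DNA replication genes. At least 2-fold differences made up 145 of the higher and 28 of the lower genes. Of the 760 genes, 752 had no overlap between the 3 tagged and 3 untagged values, as did 3317 of all genes tested (32.0%). Leaving out tagged replicate 2 gave 620 genes (5.99%, with 4.66% higher and 1.32% lower), of which 510 were among the 760. Leaving out untagged replicate 3 gave 1001 (9.63%, with 6.52% higher and 3.11% lower), of which 631 were shared. With replicates 4 and 5 of each gate alone there were 853 (8.20%, with 5.63% higher and 2.57% lower), and 422 genes (334 higher, 88 lower) were called in all of these fits. The count fell to 312 without tagged replicate 4, to 299 without tagged replicate 5, to 408 without untagged replicate 4 and to 353 without untagged replicate 5. The split depended on scaling: quantile normalization called 511 higher and 364 lower (58.4% higher against 74.7%).

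**Figure D1:**
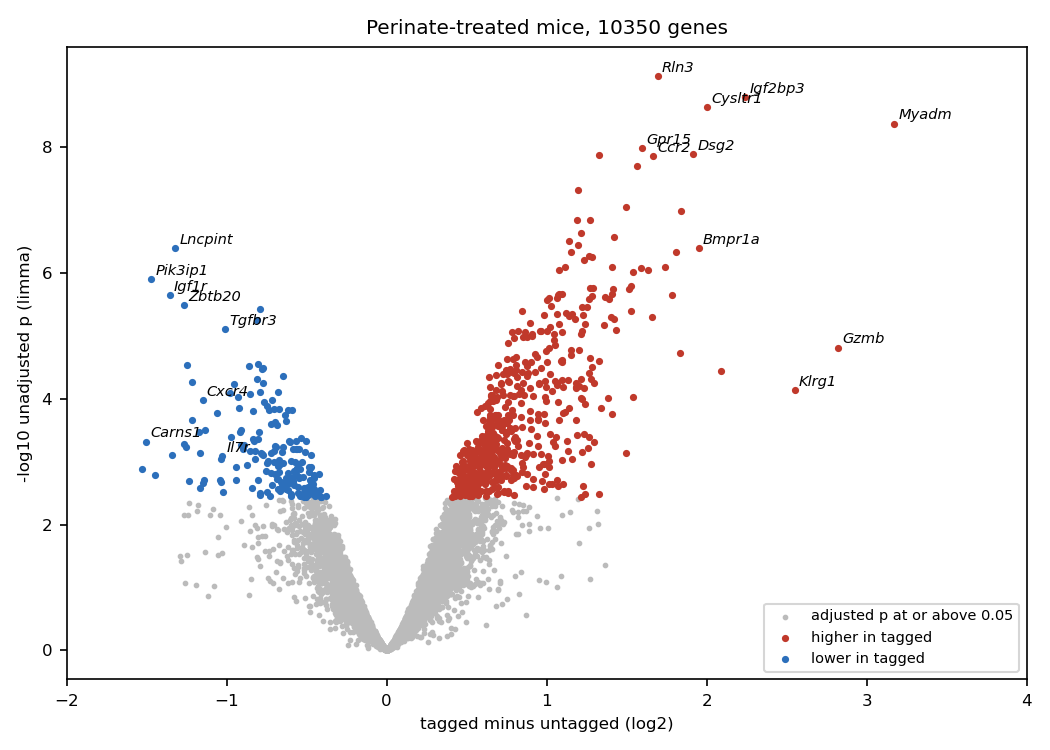
Each point is 1 of 10350 genes, with the tagged minus untagged difference on the x axis (log2) and -log10 of the unadjusted limma p on the y axis. The 568 genes in red were higher and the 192 in blue lower in tagged cells at an adjusted p under 0.05; the right arm reaches 3.17 (Myadm) and the named genes of the left arm reach -1.504 (Carns1).

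Genes of the cell membrane, the annexin and S100 families and the cytoskeleton were among those raised in tagged cells. Of 34 such genes tested 15 rose (44.1%, beside 5.49% of all genes) and 0 fell. Their median difference was 0.57 where the median of all genes was 0.02. This list, like the others, was drawn up with earlier results of these data known, so its count and median are a description. The count was 14 without tagged replicate 2 and 17 without untagged replicate 3. The mean of the list was 10.62 to 10.69 in tagged and 9.88 to 9.95 in untagged cells.

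Myadm, a membrane raft protein first known from myeloid cells, showed the largest rise of all named genes. It was measured at 10.38, 10.13 and 10.12 in tagged and at 7.34, 7.08 and 6.69 in untagged cells (difference 3.17, SE 0.26, 9.02-fold, limma adjusted p = 1.1e-05). No untagged array came near a tagged one, and the 6 adult-treated arrays read 6.97 to 8.30. S100a4, a calcium-binding regulator of myosin, was measured at 10.55, 10.52 and 10.52 against 8.77, 9.20 and 8.93 (difference 1.56, SE 0.14, limma adjusted p = 2.31e-05). Its family member S100a6 rose by 1.66 and Anxa2, an annexin that binds membranes through calcium, by 1.59. Dsg2, a desmosomal cadherin of epithelia, read 7.22, 7.75 and 7.87 in tagged cells and 5.55, 5.55 and 5.99 in untagged cells. All 3 untagged values lie in the range read for absent transcripts (3.95 to 6.30, from Y-linked genes in arrays that match a female label and Xist in thymus arrays labelled male), so neither a fold nor a difference is given for Dsg2.

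**Figure D2:**
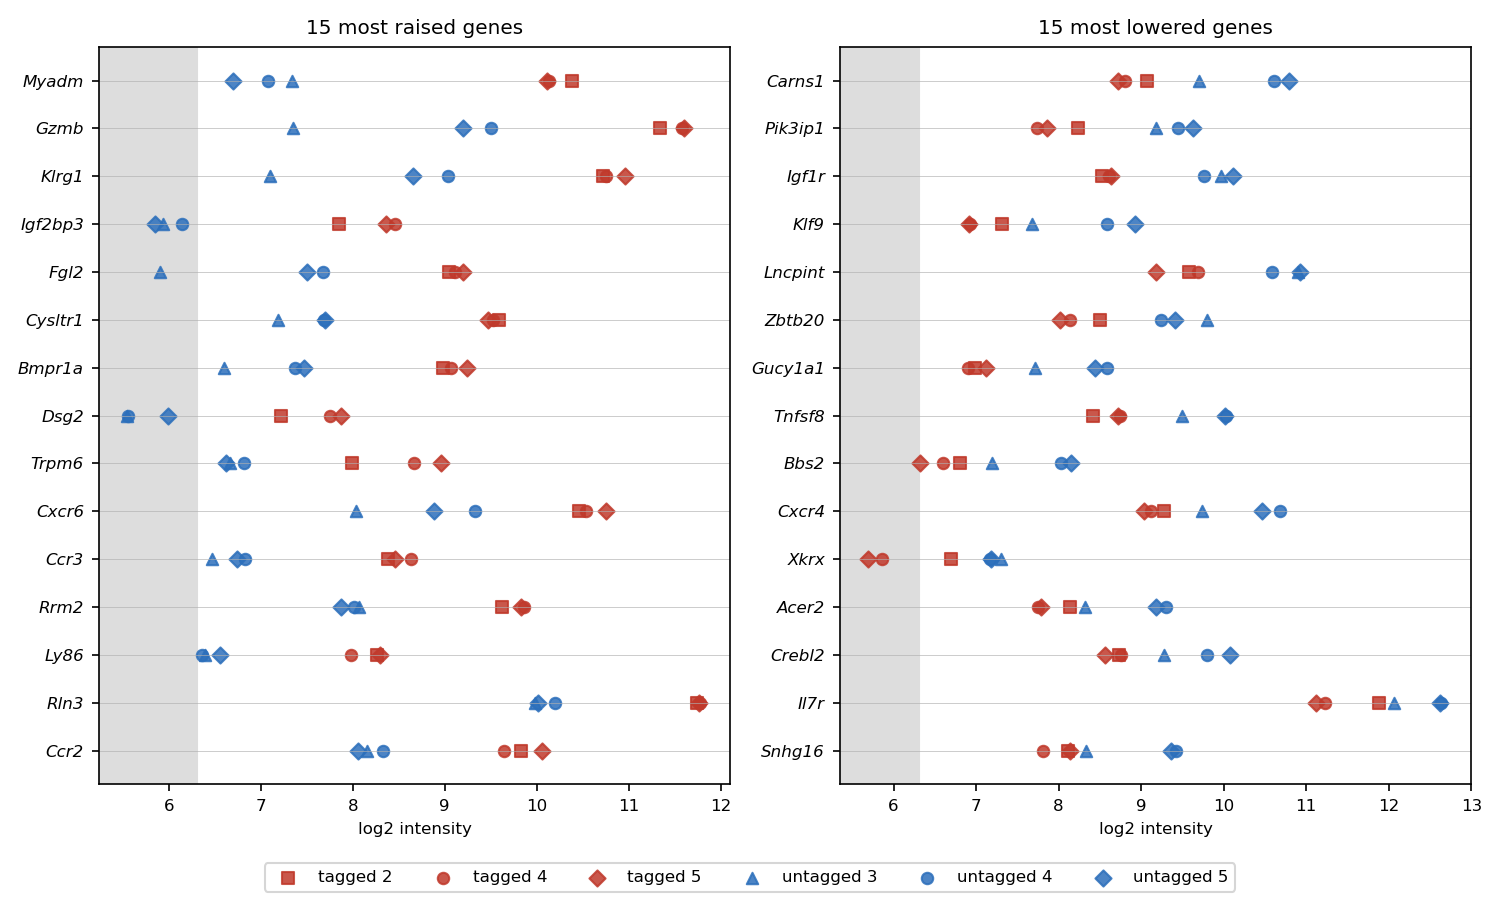
Log2 intensity (x axis) of the 15 most raised and 15 most lowered genes on each of the 6 arrays; red marks tagged and blue untagged cells, the marker shape gives the replicate number, and grey shading ends at 6.30, the highest value of an absent transcript. Untagged replicate 3 (triangles) is the lowest untagged array for Gzmb, Klrg1 and Fgl2, and the untagged array nearest to tagged cells for Carns1, Klf9, Cxcr4 and Il7r.

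Some effector molecules rose, and the values of their list depended on untagged replicate 3. Of 30 suppressive mediators and checkpoint receptors, 8 were higher (26.7%, beside 5.49% of all genes) and 0 lower, with a median of 0.37. Without untagged replicate 3 the count was 7 higher and 2 lower and the median 0.01. The list's mean was 9.66, 9.68 and 9.76 in tagged cells, and 8.50 in untagged replicate 3 against 9.66 and 9.50 in untagged replicates 4 and 5.

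Gzmb, the serine protease granzyme B, was measured at 11.34, 11.57 and 11.60 in tagged cells and at 7.35, 9.50 and 9.19 in untagged cells (difference 2.82, SE 0.45, limma adjusted p = 0.00167). Without untagged replicate 3 the difference was 2.16 (limma adjusted p = 0.00122). Klrg1, an inhibitory lectin-like receptor for cadherins, read 10.73, 10.75 and 10.96 against 7.10, 9.03 and 8.66 (difference 2.55, SE 0.47, limma adjusted p = 0.00431; 1.97 without untagged replicate 3). Tagged cells were above every untagged array for both genes. Fgl2, a secreted fibrinogen-like suppressor, rose by 2.09, or by 1.53 without untagged replicate 3, which read 5.90, in the range of absent transcripts. Lgals3, encoding galectin-3, rose by 1.26 (0.85 without untagged replicate 3).

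In that list the checkpoint receptors Ctla4, Pdcd1, Lag3, Tigit and Havcr2 did not pass (limma adjusted p from 0.456 for Ctla4 to 0.962 for Lag3). Ctla4 was measured at 10.64, 11.04 and 11.004 in tagged and at 10.46, 11.81 and 11.86 in untagged cells (difference -0.48, SE 0.36). Untagged replicate 3 was lowest of the 6 arrays and the other untagged arrays were highest. Of 20 effector transcription factors 3 rose (15%, beside 5.49% of all genes) and 0 fell, with a median of 0.22. Without untagged replicate 3 there were 2 higher and 1 lower and the median was -0.05, and without tagged replicate 2 there were 2 higher and 0 lower. The list's mean was 9.63 to 9.65 in tagged cells, 8.87 in untagged replicate 3, and 9.59 and 9.61 in untagged replicates 4 and 5. Zbtb32, a zinc finger repressor, was measured at 9.41, 9.19 and 9.36 against 8.02, 8.15 and 8.21 (difference 1.19, SE 0.12, limma adjusted p = 5.01e-05) and moved little without untagged replicate 3 (1.14). Tbx21, which encodes T-bet, rose by 0.95, and Pparg, the nuclear receptor of adipose tissue Tregs, by 1.28. Pparg missed the threshold without untagged replicate 3 (0.93, limma adjusted p = 0.0554) and without tagged replicate 2 (1.26, limma adjusted p = 0.0593).

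Several receptors that guide Tregs into tissue rose in tagged cells. Of 28 homing receptors and integrins 8 rose (28.6%) and 2 fell (7.14%), beside 5.49% and 1.86% of all genes. The list's median was 0.37 (0.20 without untagged replicate 3, with 10 higher and 2 lower). Of the 8, 3 reached the minimum intensity only in perinate-tagged cells, Ccr3 and Gpr15 among them. Ccr2, the receptor for Ccl2, was measured at 9.83, 9.64 and 10.06 against 8.15, 8.33 and 8.06 (difference 1.66, SE 0.15, limma adjusted p = 1.83e-05). Gpr15, a receptor that directs T cells to the large intestine, read 8.19, 8.56 and 8.57 against 6.73, 6.87 and 6.94 (difference 1.60, SE 0.14, limma adjusted p = 1.83e-05). For both genes the untagged arrays lay close together and below every tagged array.

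Cxcr6, the receptor for Cxcl16, was measured at 10.46, 10.54 and 10.75 in tagged and at 8.04, 9.32 and 8.89 in untagged cells (difference 1.84, SE 0.30). Ccr3, the eotaxin receptor, rose by 1.81 and Itga2, the collagen-binding integrin alpha 2 chain, by 1.38. Cxcr4, the receptor for Cxcl12 that retains cells in marrow and lymphoid tissue, moved the other way. It read 9.28, 9.12 and 9.03 in tagged and 9.73, 10.68 and 10.46 in untagged cells (difference -1.15, SE 0.22, limma adjusted p = 0.00538). The second receptor to fall was Ccr6 (-0.59), named after its value was seen.

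Some receptors for lipid mediators and growth factors passed. Of 16 lipid mediator receptors tested 3 rose (18.8%, beside 5.49% of all genes) and 0 fell, with a median of 0.07. Cysltr1, a receptor for cysteinyl leukotrienes, was measured at 9.59, 9.53 and 9.47 against 7.18, 7.69 and 7.70 (difference 2.00, SE 0.16, limma adjusted p = 8.04e-06), with no overlap. Lpar6, a lysophosphatidic acid receptor, rose by 0.65. Ltb4r1, a leukotriene B4 receptor, passed at 7.06, 7.45 and 7.10 against 5.52, 6.57 and 6.50, with untagged replicate 3 in the range of absent transcripts (0.67 without it). Of 26 genes of the BMP and TGF-beta pathway 2 rose and 4 fell, 7.69% and 15.4% of them where 5.49% and 1.86% of all genes did. Without tagged replicate 2 there were 1 higher and 2 lower, and without untagged replicate 3 there were 2 higher and 6 lower. Bmpr1a, a type I BMP receptor, read 8.98, 9.07 and 9.24 against 6.59, 7.37 and 7.47 (difference 1.95, SE 0.23, limma adjusted p = 0.000207). Tgfb3, a ligand, rose by 0.99. The co-receptor Tgfbr3 fell by 1.01, the activin receptor Acvr2a by 0.84 and the BMP signal transducer Smad1 by 0.79. Among 26 cytokine receptors, Il9r rose by 1.41 and Il12rb1 by 0.72 (7.69% higher, beside 5.49% of all genes). Il7r fell by 1.03 (3.85% lower, beside 1.86%), and 2 fell without untagged replicate 3.

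Other genes among the most raised belong to no list. Rln3, a relaxin family peptide hormone, was measured at 11.74, 11.78 and 11.76 against 9.99, 10.20 and 10.02 (difference 1.69, SE 0.12, limma adjusted p = 7.63e-06), the smallest SE among the 15 most raised genes. Trpm6, a magnesium channel with a kinase domain, rose by 1.84, and Ly86, the partner of the Toll-like receptor homologue Cd180, by 1.74. All 15 of the most raised genes stayed past the threshold under every alternative in which they were tested.

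Igf2bp3, an RNA-binding protein of fetal tissues that is silent in most adult cells, read above the level of absent transcripts in perinate-tagged cells and in no other of the 12 spleen arrays. It was measured at 7.85, 8.46 and 8.36 in tagged and at 5.94, 6.14 and 5.85 in untagged cells (limma adjusted p = 8.04e-06). The untagged values lie in the range of absent transcripts, as do those of all 6 adult-treated arrays (5.41 to 6.17), so neither a fold nor a difference is given for Igf2bp3. Of 8 fetal and imprinted genes tested, Arid3a, a fetal B cell transcription factor, also rose, by 0.54, and Airn, the noncoding RNA that silences Igf2r on the paternal chromosome, fell by 0.63. The fall of Airn was -0.44 without untagged replicate 3 (limma adjusted p = 0.0954).

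Genes of cell division were higher in tagged cells as a block. Of 36 mitosis genes tested 30 rose (83.3%, beside 5.49% of all genes) and 0 fell, with a median of 1.16. The median was 1.11 without tagged replicate 2 and 0.90 without untagged replicate 3, with 25 and 28 genes called. Mean mitosis levels were 9.07 to 9.12 in tagged cells and 7.56 to 8.29 in untagged cells. Mki67, the marker of cycling cells, was measured at 10.90, 11.03 and 10.86 against 9.17, 9.74 and 9.89 (difference 1.33, SE 0.22, limma adjusted p = 0.00241). Kif11, the motor that separates spindle poles, read 10.13, 9.92 and 9.93 against 8.25, 8.73 and 8.69 (difference 1.44, SE 0.22, limma adjusted p = 0.00108). No untagged array reached a tagged one for either gene.

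Of 37 DNA replication genes 23 rose (62.2%, beside 5.49% of all genes) and 0 fell. Their median was 0.60 (0.51 without untagged replicate 3, with 18 genes higher). Rrm2, the small subunit of ribonucleotide reductase, was measured at 9.62, 9.86 and 9.83 against 8.06, 8.02 and 7.87 (difference 1.79, SE 0.24, limma adjusted p = 0.000533). Cdc6, a loader of the replicative helicase, rose by 1.29, the polymerase subunit Pole by 1.22, the primase subunit Prim1 by 1.11 and the clamp loader subunit Rfc4 by 1.10.

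Short sequences known from the promoters of cell cycle genes were counted as a description. Searched on both strands were TTTGAA, the core of the cell cycle homology region, CCAAT, the NF-Y box, GCGGGAA, an E2F core, and GTAAACA, a forkhead core, in RefSeq windows (GRCm38.p6) of 300 bases, 250 before to 50 after each start. Such windows were found for 8351 of the 10350 genes. Of the 34 windows of the mitosis genes 79.4% held TTTGAA and 76.5% CCAAT, where 11.9% and 37.5% of the 10573 windows of all genes did. Of the 36 windows of replication genes 44.4% held GCGGGAA and 11.1% TTTGAA, beside 8.44% and 11.9% of all windows. Among all raised genes the shares were 20.5% for TTTGAA, 44.3% for CCAAT, 11.2% for GCGGGAA and 1.87% for GTAAACA. For the lowered genes they were 13.4%, 34.1%, 7.82% and 3.91%, where all windows held GTAAACA at 2.63%. A match describes letters and not a bound site.

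Promoters of 3 genes show these arrangements, each given for the 250 bases before the start, 5′ to 3′ on the gene's strand, with matches on either strand in capitals. Mki67 (chr7:135716380-135716629, minus strand) and Kif11 (chr19:37376132-37376381, plus strand) stand for mitosis genes with both TTTGAA and CCAAT, and Cdc6 (chr11:98907901-98908150, plus strand) for replication genes with GCGGGAA. Matches written as TTCAAA or ATTGG are TTTGAA and CCAAT on the other strand. Of the 5 mitosis genes taken by the rule for named genes, Kif11 and Prr11 held both letters in the 300 bases, Bub1 and Cenpe held CCAAT and no TTTGAA, and Nuf2 held neither; all 5 rose.
Mki67: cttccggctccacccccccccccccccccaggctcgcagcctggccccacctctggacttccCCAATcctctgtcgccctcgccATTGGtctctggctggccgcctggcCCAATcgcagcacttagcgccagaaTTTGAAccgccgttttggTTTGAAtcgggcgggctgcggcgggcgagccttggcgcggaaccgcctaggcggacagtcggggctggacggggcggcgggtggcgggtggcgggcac
Kif11: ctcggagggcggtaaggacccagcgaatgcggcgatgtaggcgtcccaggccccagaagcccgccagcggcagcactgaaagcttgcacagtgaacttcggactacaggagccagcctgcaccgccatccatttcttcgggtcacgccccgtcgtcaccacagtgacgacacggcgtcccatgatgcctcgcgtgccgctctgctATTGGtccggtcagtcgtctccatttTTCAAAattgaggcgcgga
Cdc6: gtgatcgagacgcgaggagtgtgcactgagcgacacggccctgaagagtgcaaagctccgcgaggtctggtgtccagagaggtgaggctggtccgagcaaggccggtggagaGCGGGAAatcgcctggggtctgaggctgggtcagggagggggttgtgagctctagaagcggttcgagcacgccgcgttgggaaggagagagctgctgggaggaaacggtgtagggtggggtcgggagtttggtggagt

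Fewer genes were lower in tagged cells, and several belong to growth factor signalling and the resting state. Igf1r, the receptor for insulin-like growth factor 1, was measured at 8.53, 8.61 and 8.63 in tagged and at 9.97, 9.76 and 10.11 in untagged cells (difference -1.36, SE 0.18, limma adjusted p = 0.000533). Pik3ip1, a membrane inhibitor of phosphoinositide 3-kinase, read 8.24, 7.74 and 7.86 against 9.18, 9.44 and 9.62 (difference -1.47, SE 0.19, limma adjusted p = 0.000397). Both groups were apart on all 6 arrays. Of 34 genes of PI3K, mTOR and FoxO signalling 2 rose (5.88%, near the 5.49% of all genes) and 4 fell (11.8%, beside 1.86%). The others that fell were the insulin receptor Insr (-0.55) and its adaptor Irs2 (-0.46). Sesn2, a stress-induced inhibitor of mTOR, rose by 0.72, and Pik3cg, a catalytic subunit named after its value was seen, by 0.42. Without tagged replicate 2 there were 1 higher and 2 lower, and without untagged replicate 3 there were 1 higher and 4 lower.

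Zbtb20, a zinc finger transcription factor, was measured at 8.50, 8.14 and 8.01 against 9.80, 9.24 and 9.41 (difference -1.27, SE 0.18, limma adjusted p = 0.000638). Il7r, the IL-7 receptor alpha chain of resting cells, read 11.88, 11.23 and 11.12 against 12.06, 12.64 and 12.62 (difference -1.03, SE 0.25, limma adjusted p = 0.0201). The gap between the nearest arrays of Il7r, tagged replicate 2 and untagged replicate 3, was small. Bcl2, the survival protein, fell by 0.78 and Als2cl, a guanine nucleotide exchange factor homologue, by 0.82. Of 25 resting T cell genes 6 fell (24%, beside 1.86% of all genes), with a median of -0.15. In that list 1 rose (Pdlim1, a cytoskeletal adaptor, by 1.01), or 4%, beside 5.49% of all genes. Without untagged replicate 3 the median was 0.06, with 4 lower and 2 higher. Leaving out tagged replicate 2 gave 6 lower and 0 higher.

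Lncpint, a long noncoding RNA induced by p53, was measured at 9.58, 9.69 and 9.18 against 10.90, 10.59 and 10.93 (difference -1.32, SE 0.15, limma adjusted p = 0.000207). Carns1, the carnosine synthase, fell by 1.504 and Klf9, a transcription factor induced by glucocorticoids, by 1.34. Tnfsf8, the CD30 ligand, fell by 1.22, and Gucy1a1, a subunit of the nitric oxide sensor guanylate cyclase, by 1.24. Of the 15 most lowered genes, Pik3ip1, Igf1r, Lncpint, Zbtb20, Gucy1a1, Tnfsf8 and Cxcr4 stayed past the threshold under every alternative. Snhg16, a host gene of small nucleolar RNAs that fell by 1.02, did so under 14 of 26 settings, and Acer2, a ceramidase that fell by 1.04, under 18. Carns1, Klf9 and Il7r missed the threshold when tagged replicate 4 or 5 or untagged replicate 4 or 5 was left out.

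The interferon response set tagged replicates 4 and 5 apart from all other spleen arrays. The mean of 30 interferon-stimulated genes was 8.60 in tagged replicate 2, 10.31 and 10.26 in tagged replicates 4 and 5, and 8.95 to 9.10 in untagged cells. After adult tamoxifen it was 8.73 to 8.98 in tagged and 8.85 to 9.14 in untagged cells. With all arrays 3 rose (10%, beside 5.49% of all genes) and 0 fell, with a median of 0.67. Without tagged replicate 2, 25 of 30 rose, with a median of 1.13, and without untagged replicate 3, 2 rose. Cmpk2, a mitochondrial nucleotide kinase induced by interferon, was measured at 7.90, 9.73 and 9.75 against 7.80, 8.08 and 7.78 (difference 1.24, SE 0.35, limma adjusted p = 0.0468). Tagged replicate 2 lay inside the untagged range and the other tagged arrays far above it. Isg20, an exonuclease, rose by 0.98 and Ddx58, the RNA sensor RIG-I, by 0.79. Array 2 also departs from its labelled sex, and the part of this in the interferon values was not tested.

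**Figure D3:**
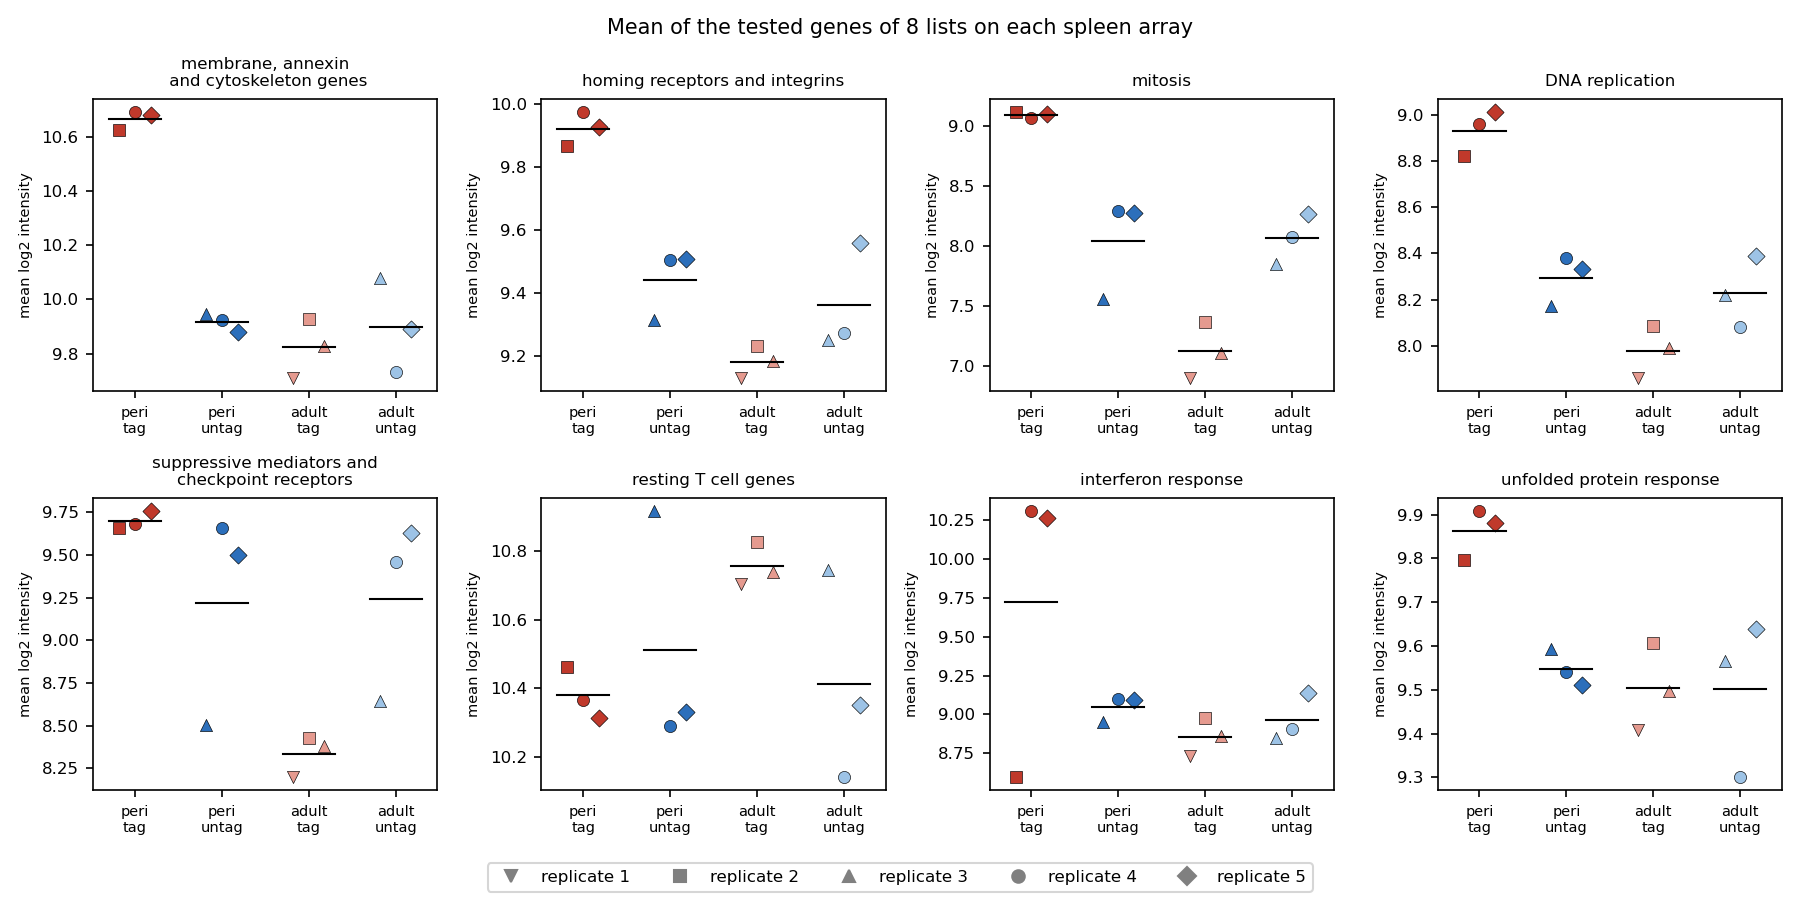
Mean log2 intensity (y axis, its range differing between panels) of the tested genes of 8 lists on each of the 12 spleen arrays, grouped by tamoxifen age and gate on the x axis; marker shapes give replicate numbers and the bar is the group mean. Perinate-tagged arrays are highest for the membrane and mitosis lists, and perinate-untagged replicate 3 lies at 8.50 in the panel of suppressive mediators. In the interferon panel perinate-tagged replicates 4 and 5 lie above all other arrays, and perinate-tagged replicate 2 lies at 8.60.

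Among metabolic and secretory lists, the unfolded protein response and glycolysis held most calls. Of 24 genes of the unfolded protein response 6 rose (25%, beside 5.49% of all genes) and 0 fell. Their median was 0.31, and 4 were higher without tagged replicate 2 and 7 without untagged replicate 3. Sdf2l1, an endoplasmic reticulum chaperone cofactor, was measured at 9.65, 9.51 and 9.68 against 8.72, 8.58 and 8.40 (difference 1.05, SE 0.17, limma adjusted p = 0.00153), and the chaperone Hsp90b1 rose by 0.71. Of 17 glycolytic genes 5 rose (29.4%), among them Tpi1 by 0.82, Pgk1 by 0.72 and Ldha, lactate dehydrogenase A, by 0.66. Without tagged replicate 2 there were 3 higher and 1 lower, and without untagged replicate 3 there were 6 higher. Of 18 cholesterol synthesis genes 1 rose (Ebp, a sterol isomerase, by 0.79), or 5.56%, near the 5.49% of all genes, and 5 did so without untagged replicate 3. Of 46 nuclear respiratory chain genes none passed in either direction, although 42 differences were above 0 (median 0.21).

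Antigen receptor signalling gave no calls among its proximal genes and some among immediate early genes. Of 28 proximal T cell receptor signalling genes and 28 ribosome biogenesis genes, 0 passed. Of 32 immediate early genes 4 rose, or 12.5%, beside 5.49% of all genes. They were Ier3 by 1.02, Klf10 by 0.94, Nr4a1, an orphan receptor induced by antigen, by 0.69, and the phosphatase Dusp5 by 0.56. For Ier3, untagged replicate 3 read 6.21, in the range of absent transcripts. Without untagged replicate 3 the list had 4 higher and 2 lower, and its median went from 0.07 to -0.03. Of 26 survival and cell death genes, the death effector Bak1 rose by 1.02, the death receptor Tnfrsf10b rose by 0.52 and Bcl2 fell as above. These calls are 7.69% higher and 3.85% lower, beside 5.49% and 1.86% of all genes. There were 1 higher and 1 lower without tagged replicate 2, and 2 higher and 2 lower without untagged replicate 3. Calls near the threshold depended on the number of arrays. Acvr2a, Bub1, Insr, Irs2, Nkg7, Pdlim1, Pparg, Snhg16, Tgfb3 and Tnfrsf10b missed it, with the sign kept, whichever tagged array was left out. Acer2, Ddx58, Hsp90b1, Ldha, Lpar6 and Nr4a1 missed it when tagged replicate 4 or 5 or untagged replicate 4 or 5 was left out, and passed without tagged replicate 2 or untagged replicate 3. Without untagged replicate 3, Tnfrsf10b, Cmpk2 and Dusp5 missed it (limma adjusted p = 0.0554, 0.068 and 0.105), as did Airn and Pparg.

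**Figure D4:**
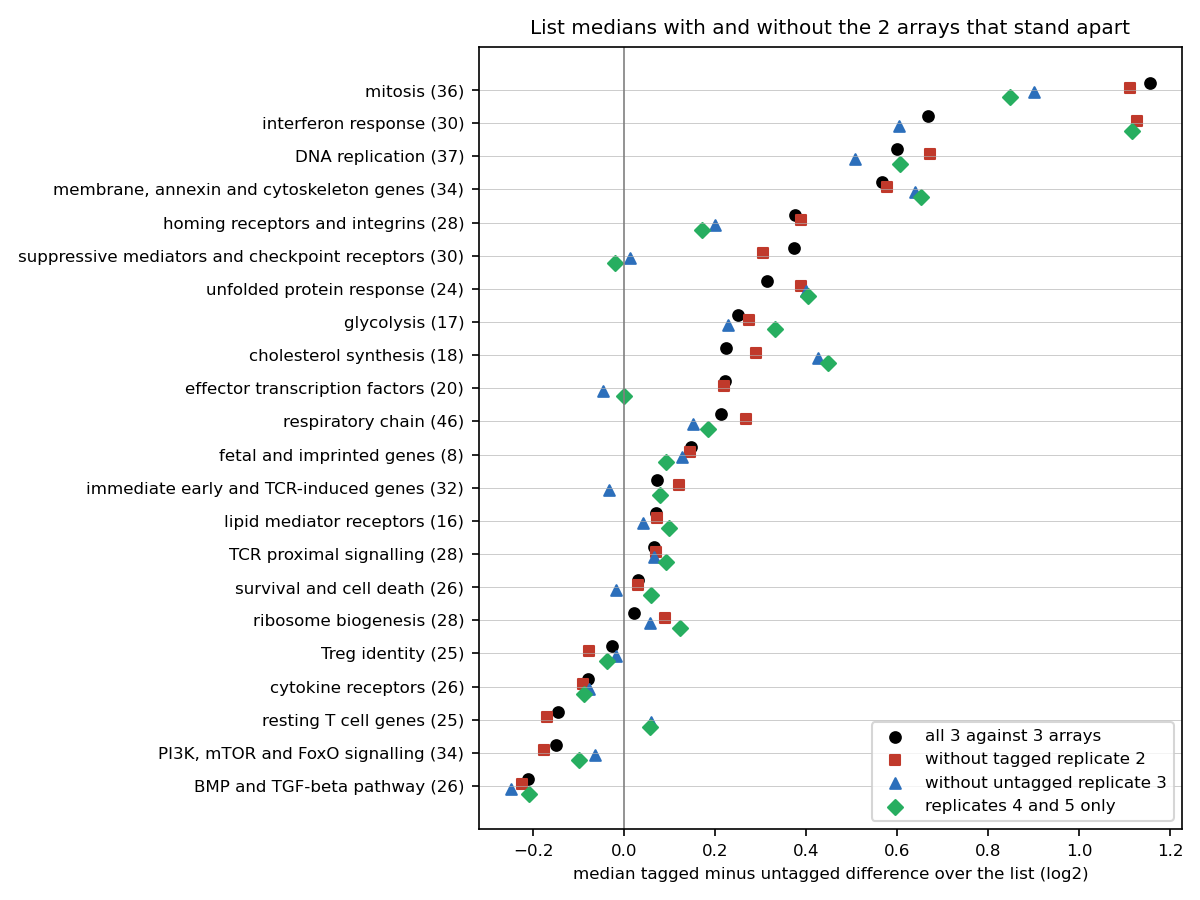
Median tagged minus untagged difference (x axis, log2) of each gene list, with the number of genes tested in brackets, over all arrays (black), without tagged replicate 2 (red), without untagged replicate 3 (blue) and with replicates 4 and 5 alone (green). The mitosis, replication and membrane lists stay above 0.5 in all 4 settings; the suppressive mediator list drops from 0.37 to 0.01 and the interferon list rises from 0.67 to 1.13.

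Most defining markers of other cell types, those of stroma apart, did not reach the minimum intensity. Of 13 B cell markers listed, 2 of 12 on the array were tested, and Cd79a and Ms4a1 read 4.94 to 5.84, the level of absent transcripts. Cd79b rose by 0.81, and the summed intensity of the 12 markers on the array was 1398 to 1633 in tagged and 1167 to 1330 in untagged cells. Of 15 myeloid markers on the array 6 were tested, and C1qb, a complement component, passed at 6.98, 7.38 and 8.06 against 6.41, 6.20 and 6.26, with 2 untagged values in the range of absent transcripts. Among the 6 tested, 2 were higher without tagged replicate 2, and 2 were higher without untagged replicate 3. The mean of the 15 markers was 6.76, 6.90 and 7.08 in tagged and 6.62, 6.56 and 6.50 in untagged cells, with every tagged array above every untagged one. Itgam, the integrin chain of macrophages and neutrophils, read 6.25, 6.43 and 6.73 against 6.04, 5.67 and 5.78, while Lyz2, which encodes lysozyme, read 5.60 to 6.21 over the 6 arrays, within the range of absent transcripts. The summed myeloid intensity was 2274 to 3145 in tagged and 2277 to 2533 in untagged cells. Of 11 CD8 and NK cell markers on the array 4 were tested, with a median of -0.14. Nkg7, a granule protein, rose by 0.98, and Cd8b1, Eomes and Gzmk differed by -0.03, -0.34 and -0.25 and did not pass; Ncr1 read 4.71 to 5.20. The summed intensity of the 11 was 2999 to 3765 against 1591 to 2584, of which Nkg7 alone made up 2232 to 2942 and 805 to 1650.1. None of 10 neutrophil markers reached the minimum. Tested were 1 of 11 dendritic cell, 2 of 6 plasma cell and 2 of 7 erythroid and platelet markers on the array, and none passed. Of 12 stroma markers 7 were tested and none passed, with a summed intensity of 2296 to 2603 in tagged and 2088 to 2659.5 in untagged cells. The part of these cells in the differences was not tested.

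Some small nucleolar RNA genes were lower in tagged than in untagged cells. The median of 46 small nucleolar RNA genes was 8.34, 8.93 and 9.001 in tagged and 9.23, 10.23 and 9.96 in untagged cells. Of the 46, 19 are among the 192 lower genes and 0 among the higher, where 1.86% of all genes were lower. All 46 differences were below 0. Without tagged replicate 2, 4 passed the threshold, and without untagged replicate 3, 29 did. Averaged over arrays, the median was 8.76 in perinate-tagged, 8.87 in adult-tagged and 8.87 in adult-untagged cells, and 9.81 in perinate-untagged cells. Perinate-untagged replicates 4 and 5 were above every other spleen array, while perinate-untagged replicate 3 lay below adult-untagged replicate 3 (9.42). The interquartile range of all genes was 2.94 to 3.12 in tagged and 2.88 to 3.00 in untagged arrays. The part of this pattern in the other differences was not tested.

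Of 63 microRNA genes tested 3 fell (4.76%, beside 1.86% of all genes) and 0 rose. Mir155, induced in activated lymphocytes, fell by 0.68 (SE 0.18, limma adjusted p = 0.0331), Mir7-1 by 0.58 and Mir195a by 0.50. Mir7-1 missed the threshold without tagged replicate 2 (-0.48, limma adjusted p = 0.0985). They were named after their values were seen, and the array reads the gene or its precursor and not the mature strand. Their guide strands are shown because their seeds (bases 2 to 8, in capitals) differ, so the 3 genes do not form a seed family. The sequences are from RefSeq, GRCm38.p6.
miR-155-5p: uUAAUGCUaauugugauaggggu
miR-7a-5p: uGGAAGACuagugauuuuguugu
miR-195a-5p: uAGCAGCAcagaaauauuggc

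The same gates after adult tamoxifen gave another picture. Adult-tagged cells differed from adult-untagged cells at 28 genes, 28 lower and 0 higher (limma, 0.271%; 1699 genes had an unadjusted p under 0.05), and 12 of the 28 belong to the mitosis list. That count is unsteady: it was 0 without adult-tagged replicate 1, adult-tagged replicate 3, adult-untagged replicate 4 or adult-untagged replicate 5, and 13 without adult-tagged replicate 2. It was 774 without adult-untagged replicate 3, and 259 without perinate-untagged replicate 3, which enters through the shared variance. It was 17, 10 and 16 without perinate-tagged replicates 2, 4 and 5. Adult-tagged arrays are numbered 1 to 3 and adult-untagged arrays 3 to 5, with only number 3 in both, so number and gate can hardly be told apart there. Of the 28 genes 25 were among the 760 called after perinatal tamoxifen, and all 25 in the opposite direction.

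The difference of the 2 differences, which uses no array more than once, passed at 506 genes (4.89%), 444 of them positive (4.29%) and 62 negative (0.599%). By quantile normalization there were 412 positive and 140 negative. Without adult-tagged replicate 1 there were 279 genes, without adult-tagged replicate 3 there were 332, and without perinate-tagged replicates 4 or 5 there were 311 and 307. Of the 568 genes raised in perinate-tagged cells 567 had a more positive difference after perinatal than after adult tamoxifen, and for 322 (56.7%) the difference of differences passed the threshold. Of the 192 lowered genes 191 had a more negative one, and for 43 (22.4%) it passed. The perinatal difference chose these genes and enters the difference of differences, so these shares are a description.

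Mki67 shows the pattern of the mitosis genes. After adult tamoxifen it was measured at 7.83, 8.76 and 8.23 in tagged and at 9.52, 9.93 and 9.92 in untagged cells, a difference of -1.51 (limma adjusted p = 0.0257) where perinatal tamoxifen gave 1.33. The 2 differences were 2.84 apart (limma adjusted p = 0.000132). Gzmb differed by -1.28 after adult tamoxifen (limma adjusted p = 0.202), 4.10 below its perinatal difference (limma adjusted p = 0.00134). Rln3 and Gpr15 were nearly level in the adult gates (0.21 and 0.00). Igf1r differed by 0.11 and Lncpint by 0.19 there, and both had more negative perinatal differences (-1.47 and -1.51 apart, limma adjusted p = 0.0033 and 0.000812). Carns1, Klf9, Cxcr4 and Il7r were lower in tagged cells after either treatment, with adult differences of -0.59, -0.74, -0.57 and -0.42 that did not pass, and for none of these 4 did the difference of differences pass.

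**Figure D5:**
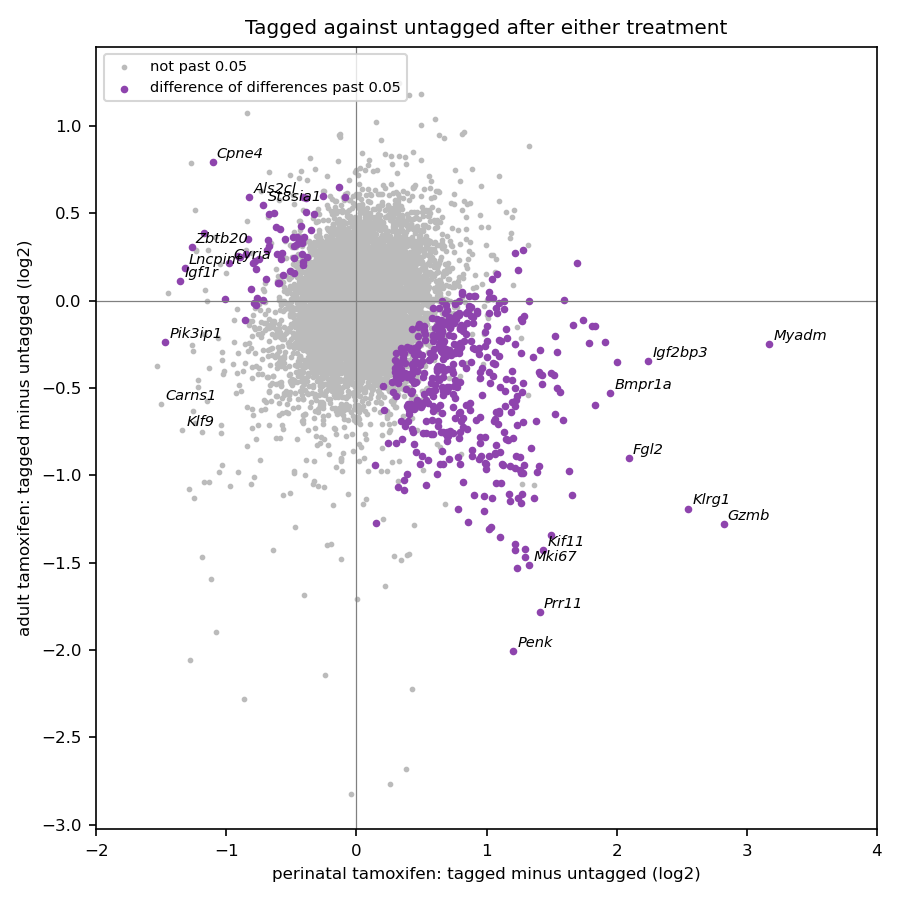
Tagged minus untagged difference after perinatal (x axis) and after adult tamoxifen (y axis), both log2, for 10350 genes; purple marks the 506 genes whose 2 differences differ at an adjusted p under 0.05. Most purple points lie at the lower right, raised after perinatal and at or below 0 after adult tamoxifen, with Gzmb, Klrg1, Myadm and Fgl2 farthest out and Lncpint and Igf1r among those at the upper left.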

How the data were processed

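RNA of 12 spleen Treg samples, part of a series of 18 arrays in 6 groups of 3, was measured on the Affymetrix Mouse Gene 1.0 ST platform. Per the submitters' processing notes the authors used Affymetrix Power Tools, with RMA; versions, genome build and the arrays normalized together are not given in the sources used here. The deposited values are intensities on the linear scale (6.81 to 18850); their log2 was taken with no pseudocount and no further normalization. Precision is limited by the number of arrays. The chimera arm of the series is not analysed here.

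Of 24922 probe sets 21425 had 1 gene symbol, 1399 several and 2098 none. The brightest probe set of each gene was kept (19752 genes), and a gene was tested when 1 or more group means were at or above the median deposited value (132.7; log2 7.05). limma 3.58.1 in R 4.3.3 (lmFit, eBayes) was fitted to the 12 arrays with 1 coefficient per group, with two-sided tests and Benjamini-Hochberg adjustment over 10350 genes. An exact permutation test of 3 against 3 cannot fall below p = 0.1. The scripts were tested on simulated data. Figures used matplotlib 3.10.9.

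Named were genes past 0.05 with no overlap between gates, the 15 most higher and 15 most lower, without predicted genes, small RNAs and sex-linked genes. Added were up to 5 called members per list, the check genes, and the 8 most positive and 8 most negative differences of differences. Members and the 31 lists were chosen with earlier results of these data known; some genes stand in more than 1 list. Alternatives covered scaling, filters, probe set choice, arrays fitted, variance prior, array weights, covariates, the replicate number and each array left out; 3 more, leaving out arrays that stand apart, were chosen after seeing the data.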

Additional observations from a re-analysis of the deposited data

Results flagged for a closer look

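The tagged minus untagged difference was not the same after perinatal and adult tamoxifen for the genes below, by limma's test of the difference of differences over 10350 genes (3 arrays per group). Among the most positive were Gzmb (4.10), Klrg1 (3.74), Myadm (3.42), Penk, the enkephalin precursor (3.21), Prr11 (3.19), Fgl2 (3.00), Kif11 (2.87) and Mki67 (2.84). The adult-tagged values of Fgl2 (6.07, 6.10 and 6.18) lie in the range of absent transcripts, so the size of its value is uncertain. Penk did not pass within perinate-treated mice (difference 1.20, limma adjusted p = 0.13): it was measured at 11.56, 11.73 and 11.62 in tagged and at 9.13, 11.17 and 11.003 in untagged cells.

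Among the most negative were Cpne4, a copine (-1.90), Zbtb20 (-1.57), Lncpint (-1.51), Igf1r (-1.47), Als2cl (-1.42), St8sia1, a ganglioside sialyltransferase (-1.26), Pik3ip1 (-1.23) and Cyria (-1.20). In perinate-tagged cells Cpne4 read 5.84, 5.79 and 5.56, in the range of absent transcripts. The size of its difference of differences is therefore uncertain. Cpne4 and St8sia1 did not pass within perinate-treated mice (limma adjusted p = 0.075 and 0.0911). Groups of 3 arrays are too small for a test of single outlying arrays.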

How the results depend on the processing

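Of the tagged against untagged calls, 760 after perinatal tamoxifen became 173 with a 2-fold minimum, 3867 with array weights, 1599 without both untagged arrays numbered 3 and 1556 also without perinate-tagged replicate 2; leaving out 1 array gave 299 to 1001. The 28 adult calls became 17 with a 2-fold minimum or no filter on low values, 99 with all 18 arrays, 71 with array weights, 0 with the interquartile range as covariate, 246 with perinate replicates 4 and 5 alone, 1450 without both untagged arrays numbered 3 and 1578 also without perinate-tagged replicate 2; leaving out 1 array gave 0 to 774. The 506 differences of differences became 309 with a 2-fold minimum, 1077 with array weights and 819 without these 3 arrays; leaving out 1 array gave 279 to 679. Other array sets and filters differ by construction; for the remaining settings the cause was not tested.

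The arrays share replicate numbers 4 and 5 between the perinate gates. Residual correlations were -0.11 and 0.0008 for these pairs, and pairs of unlike number ranged from -0.12 to 0.17. With 3 arrays per group these values cannot show whether a shared number means a shared animal or sort. With the replicate number as a block the counts were 1087 perinate, 11 adult and 274 differences of differences.

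Il2ra, near 0 with all arrays (0.003), changed sign with quantile normalization (-0.0042), the replicate block (-0.017), replicates 4 and 5 alone or without the 3 arrays (-0.0075), and with 1 array left out ranged from -0.079 to 0.075. Array number and signal over background limit what low genes can show.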
